A study of Drosophila melanogaster with 2 samples.

Results

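The sites described here are regions of Groucho ChIP-seq signal at 7 genes of the Drosophila JAK-STAT pathway: the ligand genes upd1, upd2 and upd3, the receptor gene dome, the Janus kinase gene hop, the transcription factor gene Stat92E and the inhibitor gene Socs36E. A region was assigned to a gene when its summit lay inside the gene or within 5 kb of either end, whatever its signal. This rule assigned 12 of the 4492 regions that the authors kept after an irreproducible discovery rate (IDR) step, called IDR peaks here. It assigned 57 of the 30000 regions listed for both replicates pooled, and the 12 IDR peaks are among these 57. The pooled list holds background as well as peaks, so a pooled region outside the IDR list need not be a binding site. The 7 genes are compared with all 13945 protein-coding genes of the main chromosome arms.

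Groucho (gro) is a corepressor without a DNA-binding domain of its own that is brought to genes by DNA-binding repressors. The chromatin came from whole Drosophila melanogaster embryos of mixed sex, collected from 0 to 24 h, of a transgenic line that stably expresses gro with GFP at its C-terminus. Sonication gave fragments of 200 to 800 bp, and an antibody against GFP was used for the precipitation. There was 1 group with 2 biological replicates, numbered 1 and 3, and no untagged precipitate was analysed here, so binding by the fusion protein and unspecific recovery cannot be told apart. Whether the embryos also carry untagged gro is not given in the sources used here, and a whole-embryo profile does not show in which cells or at which age a site was occupied.

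In the JAK-STAT pathway a secreted Unpaired ligand binds the receptor Domeless, the kinase Hopscotch bound to the receptor phosphorylates it and Stat92E, and Stat92E enters the nucleus and activates target genes. Socs36E is among these targets and dampens the signal, which makes a negative feedback loop. In the embryo the pathway is known for its part in segmentation and in the formation of the trachea, gut and posterior spiracles. Fly STAT binds the palindrome TTCNNNGAA, and also the form with 1 more free base, TTCNNNNGAA.

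Stretches of the dm6 genome show what lay under the peaks, read on the plus strand 5′ to 3′ from the RefSeq Release 6 sequence, with matches to either STAT form in capitals. The first 3 are the 300 bp windows around the IDR summits that held such a match, and the other two, of 200 bp, are the site just upstream of the Socs36E start and the highest site of Stat92E, neither with a match. The upd3 window is chrX:18282330-18282629 in the third intron, the Stat92E window with a match is chr3R:20548278-20548577 in the first intron, and the Socs36E window with a match is chr2L:18145304-18145603 in the first intron. The Socs36E stretch upstream of the start is chr2L:18152431-18152630, and the upstream Stat92E stretch is chr3R:20555122-20555321, inside the neighbouring gene DPCoAC.
upd3 intron: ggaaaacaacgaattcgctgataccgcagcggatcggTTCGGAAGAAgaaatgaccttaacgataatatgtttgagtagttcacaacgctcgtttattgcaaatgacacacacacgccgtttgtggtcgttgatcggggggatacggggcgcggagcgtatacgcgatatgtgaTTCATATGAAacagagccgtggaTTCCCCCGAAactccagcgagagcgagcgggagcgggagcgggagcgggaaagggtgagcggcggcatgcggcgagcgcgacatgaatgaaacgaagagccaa
Stat92E intron: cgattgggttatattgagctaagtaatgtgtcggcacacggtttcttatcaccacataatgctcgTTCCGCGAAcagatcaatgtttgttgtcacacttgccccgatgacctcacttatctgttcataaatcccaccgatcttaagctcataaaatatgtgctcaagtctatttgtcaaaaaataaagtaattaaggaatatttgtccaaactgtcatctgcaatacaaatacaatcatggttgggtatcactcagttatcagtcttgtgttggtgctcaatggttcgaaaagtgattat
Socs36E intron: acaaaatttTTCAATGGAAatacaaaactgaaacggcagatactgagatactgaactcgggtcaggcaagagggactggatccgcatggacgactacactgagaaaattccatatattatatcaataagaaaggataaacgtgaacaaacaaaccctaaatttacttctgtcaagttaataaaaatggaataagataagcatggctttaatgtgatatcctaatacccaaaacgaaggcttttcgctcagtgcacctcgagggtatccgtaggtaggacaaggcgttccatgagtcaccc
Socs36E upstream: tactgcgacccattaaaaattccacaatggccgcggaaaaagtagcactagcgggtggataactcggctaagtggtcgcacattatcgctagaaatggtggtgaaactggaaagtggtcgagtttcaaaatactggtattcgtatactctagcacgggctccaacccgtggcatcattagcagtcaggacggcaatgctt
Stat92E upstream: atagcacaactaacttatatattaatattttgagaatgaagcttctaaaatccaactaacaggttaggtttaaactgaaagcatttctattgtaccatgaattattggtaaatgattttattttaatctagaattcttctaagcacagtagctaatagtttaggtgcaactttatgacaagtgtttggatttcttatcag

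The upd3 window held 3 matches, all with 4 free bases, and the next paragraphs return to it. The signal quoted throughout is the value in the authors' peak lists, whose scale is not stated. It ran from 80.6 to 1892 with a median of 116 in the IDR list and down to 21.4 in the pooled list, and it only describes and ranks regions within a list. The depth of the libraries is unknown, since the lists give no read numbers. Each replicate has its own list of 30000 regions, and a region's replicate signal is that of the overlapping region with the nearest summit.

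Groucho sites at the pathway were unevenly spread. The IDR peaks fell at upd3 and hop, with 1 each, and at Stat92E and Socs36E, with 5 each, and none fell at upd1, upd2 and dome. That is 4 of 7 members (57.1%), against 49.4% of all protein-coding genes by the same rule, so the share that had a peak was near the background. Longer genes offer more sequence, and among the fifth of genes with the longest windows, which takes in upd3, dome, hop, Stat92E and Socs36E, 60.7% had an IDR peak. It was 56.4% in the fifth of genes that holds upd1, 51.7% in the fifth that holds upd2, and 45.7% and 32.7% in those with the shortest windows, which hold no member. At least 5 IDR peaks, as at Stat92E and Socs36E, were found at 1.74% of all protein-coding genes and at 6.17% of the fifth with the longest windows. The 5 of Stat92E include a pair that overlap: with overlapping peaks counted once it had 4, a number that 3.54% of all protein-coding genes reached, and Socs36E still had 5, reached by 1.41%. In the gene body alone Stat92E had 4 and Socs36E 2. From the 4492 highest regions of a single replicate, Stat92E had 4 without replicate 1 and 6 without replicate 3, and Socs36E had 7 and 6. All 7 members (100%) had a pooled region, against 76.9% of all protein-coding genes, a share not matched for window length. Since the pooled list includes background, this is no count of bound genes. The density of IDR peaks was 1.85 per 10 kb of window at Stat92E and 2.11 at Socs36E, against 0.336 per 10 kb over the chromosome arms. The arms also hold sequence outside gene windows, so gene windows are the closer comparison. Their mean number of IDR peaks was 1.47 in the fifth with the longest windows and 1.02 in the next. No test was made, because the series holds 1 group and the genes were listed for their shared pathway.

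**Figure D1:**
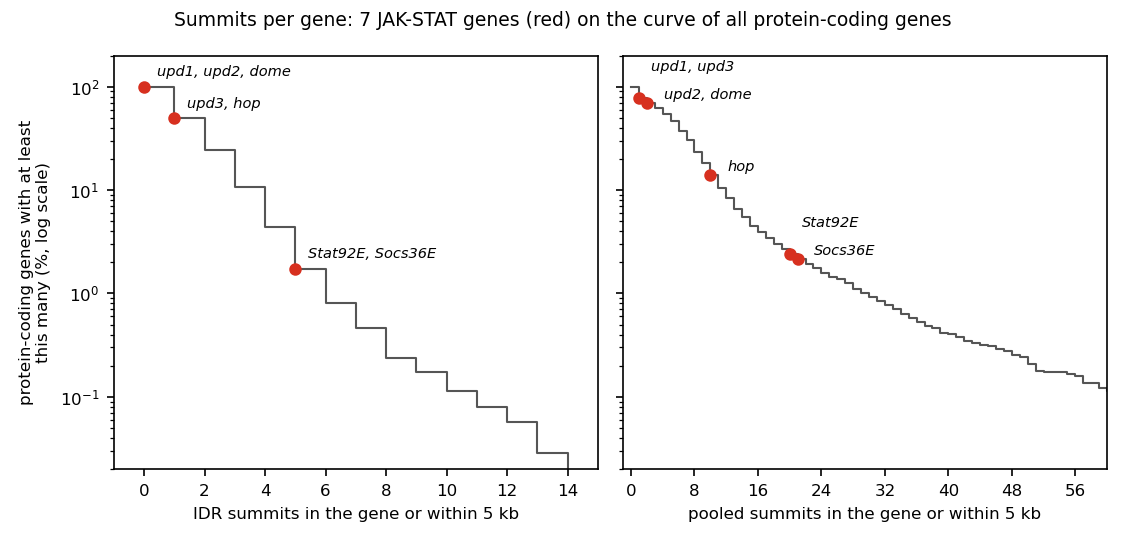
Percentage of protein-coding genes (log scale) that hold at least a given number of summits in the gene or within 5 kb, for IDR peaks (left) and pooled regions (right), with the 7 JAK-STAT genes as red points on the curve. Stat92E and Socs36E stand at 5 IDR summits, reached by 1.74% of genes, and upd1, upd2 and dome stand at 0.

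**Figure D2:**
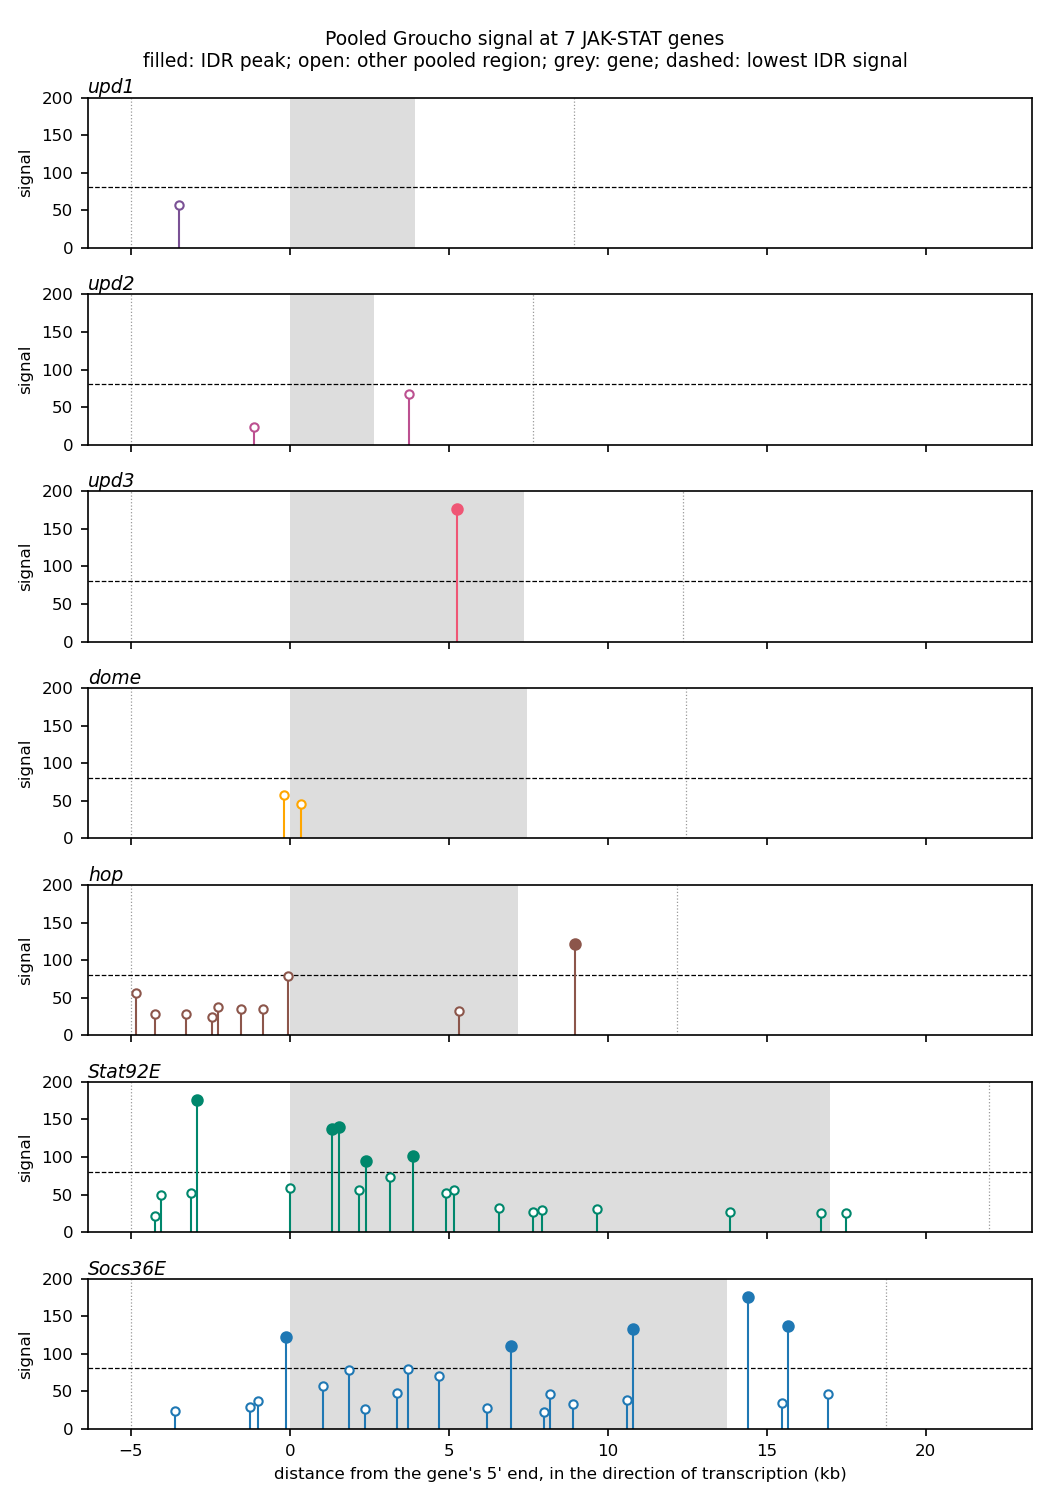
Pooled signal of every region at the 7 genes against the distance of its summit from the gene's 5′ end in the direction of transcription (kb), with the gene in grey, the 5 kb limits dotted and the lowest IDR signal, 80.6, dashed. Filled points are the 12 IDR peaks and open points the 45 other pooled regions; Stat92E and Socs36E carry most of both.

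Of the 3 ligand genes, upd3 (FBgn0053542, chrX:18277233-18284596, plus strand) held an IDR peak, and upd1 (FBgn0004956, chrX:18305354-18309291, minus strand) and upd2 (FBgn0030904, chrX:18240654-18243284, minus strand) did not. The upd genes encode secreted cytokine-like ligands and lie beside each other on the X; upd1 is the ligand known for segmentation, and upd3 is best known for its induction by stress and infection. The upd3 peak (chrX:18282275-18282684) lay in the third and last intron, 5247 bp downstream of the start, with no other annotated start closer. Its pooled signal was 176, rank 852 of the IDR list, and its signal was 101 in replicate 1 and 73.5 in replicate 3, or 87.0 ± 19.1 (SD, n = 2). It was the single pooled region in the upd3 window.

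The summit of upd3 had STAT forms on both sides. Of the 3 matches with 4 free bases, TTCGGAAGAA was centred 108 bp below the summit in coordinate, TTCATATGAA 29 bp above it and TTCCCCCGAA 52 bp above it. At least 1 match of this form was in 8.68% of all IDR windows. The share with several matches was not computed, so the number only describes this window. The window had a GC content of 54.3%, the highest of the 12 member windows.

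At upd1 and upd2 the signal stayed below the IDR list. The single pooled region of upd1 (chrX:18312577-18312986) lay 3491 bp upstream of the gene's 5′ end with a signal of 57.6, nearest to a noncoding gene, lncRNA:CR45609, at 856 bp. Its replicate signals were 29.1 in replicate 1 and 28.6 in replicate 3, which hardly differed. The stronger of the upd2 regions (chrX:18239334-18239743) lay 1115 bp beyond the 3′ end with a signal of 67.6, and had 26.7 in replicate 1 and 37.6 in replicate 3. The other, 1113 bp upstream of the start, had 23.2 and was listed in replicate 1 alone, near the floor of the pooled list.

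The ligand cluster held fewer pooled regions per length than the arms as a whole, and IDR peaks at a density nearer to theirs. From 5 kb beyond upd2 to 5 kb beyond upd1, a stretch of 78638 bp with 4 protein-coding genes, there were 5 pooled regions, or 0.636 per 10 kb, against 2.24 per 10 kb over the arms. The IDR peaks numbered 2, or 0.254 per 10 kb, against 0.336 over the arms. The second of these (chrX:18294032-18294441, signal 161) lay between upd3 and upd1, 9641 bp past the 3′ end of upd3 and 14022 bp from the nearest upd1 start, and so outside the limit.

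The receptor gene dome (FBgn0043903, chrX:19676061-19683518, minus strand) had signal at its promoter, but no IDR peak. A pooled region 175 bp upstream of the start (chrX:19683488-19683897) had a signal of 58.3, with 23.4 in replicate 1 and 36.0 in replicate 3; the start of Ubqn, which encodes ubiquilin, was closer, at 115 bp. A second region in the 5′ UTR, 359 bp downstream of the start, had 46.4 in the pooled list, 49.9 in replicate 1 and 45.2 in replicate 3. Its pooled signal was thus not above that of replicate 1 alone. When the 4492 highest regions of each single replicate were taken in place of the IDR list, dome had 1 region in each of the lists. Between 5 and 10 kb from dome lay 3 IDR peaks with signals of 119, 171 and 393, near the starts of Zw, which encodes glucose-6-phosphate dehydrogenase, and of Mer, which encodes the tumour suppressor Merlin.

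At the Janus kinase gene hop (FBgn0004864, chrX:11360930-11368098, minus strand) the IDR peak belonged by position to a neighbour. It lay 1799 bp beyond the 3′ end of hop (chrX:11358926-11359335) and 105 bp from the start of Pa1, with a pooled signal of 121. Its signal was 71.5 in replicate 1 and 50.4 in replicate 3, or 60.9 ± 14.9 (SD, n = 2). The hop promoter itself held a pooled region 47 bp upstream of the start (chrX:11367940-11368349) with a signal of 78.6, rank 4695, just under the lowest IDR signal of 80.6. It had 39.5 in replicate 1 and 34.8 in replicate 3, or 37.1 ± 3.33 (SD, n = 2), so the replicates were close there.

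The remaining signal in the hop window was weak. The window held 10 pooled regions, a number that 14.0% of protein-coding genes reached, but hop was the nearest protein-coding start for 1 of them. Another 7 lay further upstream, with signals between 23.8 and 55.9, nearest to Tim8, a mitochondrial import gene, and dlg1, which encodes a scaffold of cell junctions. One lay in an intron of hop with 32.0.

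Stat92E (FBgn0016917, chr3R:20535323-20552311, minus strand), which encodes the pathway's transcription factor, held 5 IDR peaks and 20 pooled regions. The strong sites gathered in the 5′ part of the gene and just upstream, and the 3′ part held weak regions. The annotation gives 2 starts 1204 bp apart. The highest peak (chr3R:20555017-20555426) lay 2911 bp upstream of the outer start, inside DPCoAC, a mitochondrial carrier gene whose start was closer, at 813 bp. Its pooled signal was 176, rank 853, with 79.3 in replicate 1 and 94.0 in replicate 3, or 86.7 ± 10.3 (SD, n = 2).

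At the inner start of Stat92E a pair of IDR peaks lay side by side in the 5′ UTR. The summit at 114 bp downstream (chr3R:20550788-20551197) had a pooled signal of 137, with 39.3 in replicate 3. The summit at 333 bp downstream (chr3R:20550694-20550809) had 140, with 53.8 in replicate 3. Both overlap 1 region of replicate 1 with a signal of 96.7, so these peaks are not independent, and replicate 1 was the higher for each. The mean over replicates was 68.0 ± 40.6 and 75.3 ± 30.3 (SD, n = 2), the widest spreads among the 12 IDR peaks. The outer start had a weaker region, 14 bp downstream, with a pooled signal of 58.3; it was listed in replicate 1 with 49.8 and had no overlapping region in replicate 3.

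The first intron of Stat92E held the other IDR peaks. At 1198 bp downstream of the inner start (chr3R:20549704-20550113) the signal was 94.1, with 58.1 in replicate 1 and 48.8 in replicate 3. At 2679 bp (chr3R:20548223-20548632) it was 101, with 69.3 in replicate 1 and 33.7 in replicate 3, or 51.5 ± 25.2 (SD, n = 2). Its window, printed above, holds the single match with 3 free bases among the 12, TTCCGCGAA, centred 81 bp below the summit in coordinate. Between these peaks lay a region of 73.7, at 1956 bp, below the IDR list. Further down the gene the signal was 52.1 at 3715 bp and 56.5 at 3944 bp from the inner start, and at most 32.6 in the 7 regions beyond these.

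Socs36E (FBgn0041184, chr2L:18138675-18152417, minus strand), the feedback inhibitor, held 5 IDR peaks and 21 pooled regions. It was the most densely covered of the 7 genes, with 8.84 pooled regions per 10 kb of window, against 2.24 over the arms, which include sequence outside gene windows. The mean number of pooled regions was 9.84 in the fifth of genes with the longest windows. A number of at least 20 pooled regions was found at 2.40% of protein-coding genes, and at 12.0% of the fifth with the longest windows. The peak at the Socs36E start (chr2L:18152326-18152735), 114 bp upstream, had a pooled signal of 123. It had 61.1 in replicate 1 and 62.2 in replicate 3, or 61.6 ± 0.781 (SD, n = 2), the closest agreement of replicates among the 12 IDR peaks.

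Inside Socs36E the IDR peaks lay in introns. The peak in the long first intron (chr2L:18145249-18145658), 6963 bp from the start and 356 bp from the start of the noncoding gene lncRNA:CR44478, had 111, with 47.2 in replicate 1 and 63.1 in replicate 3. Its window holds TTCAATGGAA, centred 136 bp below the summit in coordinate. The peak in the second intron (chr2L:18141413-18141822), 10799 bp from the start, had 133, with 67.6 in replicate 1 and 62.9 in replicate 3. Between the start and the first of these, the first intron held further regions below the IDR list, of which the highest had 79.8, 78.5 and 70.4.

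Past the 3′ end of Socs36E the peaks fell in kel, a gene known for the ring canals of the female germ line. The highest peak of the window (chr2L:18137800-18138209) lay 670 bp beyond Socs36E and 78 bp from the kel start, with a signal of 176, rank 851. It had 73.2 in replicate 1 and 103 in replicate 3, or 88.3 ± 21.4 (SD, n = 2). The other (chr2L:18136540-18136949), 1338 bp from the kel start, had 137, with 68.8 in replicate 1 and 62.2 in replicate 3. The start of Socs36E itself was the nearest protein-coding start for 2 of its 5 IDR peaks, against 4 of 5 at Stat92E.

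The member sites were of middling strength for the IDR list. The 12 IDR peaks had signals from 94.1 to 176 and ranks from 851 to 3427 of 4492, with a median of 135 against 116 over all IDR peaks. The highest sites of Socs36E, upd3 and Stat92E followed each other in the list, at ranks 851, 852 and 853. The neighbours in rank were the site at Sar1 above (rank 850) and the site at Sbat below (rank 854), which differed in pooled signal by 0.012 from the Socs36E site and by -0.003 from the Stat92E site. Next to the hop peak stood sites at ReepA (rank 2044) and CG1806 (rank 2046). Likeness here is the difference in pooled signal over a single pooled list.

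By position, the 12 IDR summits were spread over introns, starts and flanks. Introns of the member held 5 and the 5′ UTR 2, another 2 lay upstream and 3 downstream. Within 500 bp of any annotated start lay 6 of the 12. No shares of all IDR peaks in these places were computed, so the counts only describe the member sites. The members with an IDR summit within 1 kb of one of their own starts were Stat92E and Socs36E, 2 of 7 (28.6%), against 25.9% of all protein-coding genes.

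**Figure D3:**
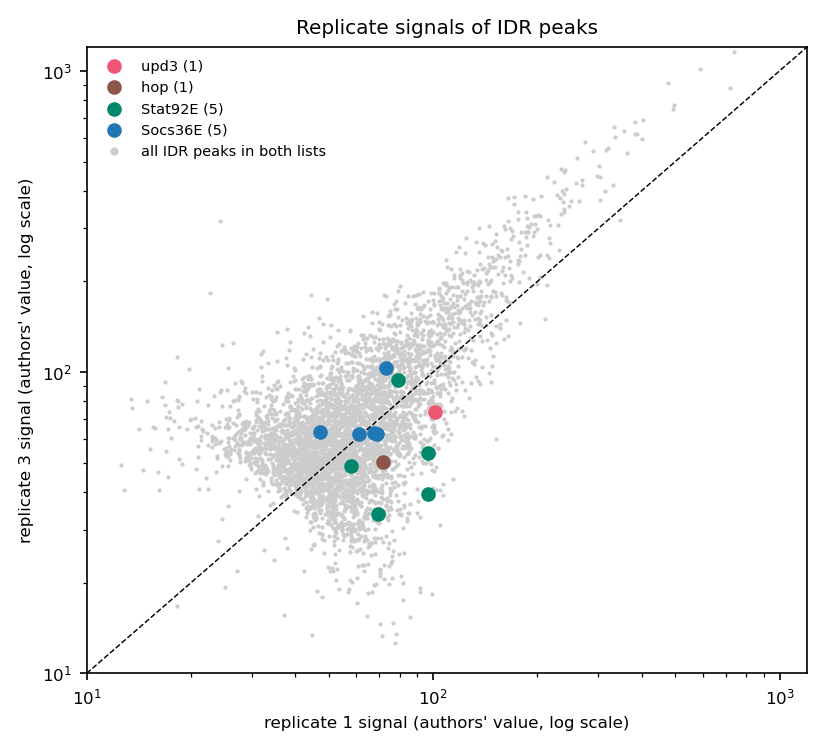
Replicate 3 signal against replicate 1 signal (authors' values, log scales) for the 12 IDR peaks at upd3, hop, Stat92E and Socs36E, over all 4473 IDR peaks found in both replicate lists (grey); the dashed line marks equal signal. Of the 12, 8 lie below the line, with the higher signal in replicate 1.

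Most member sites had the higher signal in replicate 1. All 12 overlapped a region in both replicate lists, as did 99.6% of all IDR peaks, and both replicates entered the derivation of that list. Higher signal in replicate 3 was seen at 4 of the 12 sites (33.3%), against 63.9% of all IDR peaks in both lists. That share takes in pooled signals up to 1892, where the members end at 176. The strongest peaks of the list mostly had the higher signal in replicate 3. No share for peaks of like strength was computed, and whether strength accounts for the difference was not tested. The ratio of replicate 3 to replicate 1 ran from 0.406 to 1.41 with a median of 0.872 at the members, against a median of 1.17 over all IDR peaks. The sites with the higher signal in replicate 3 were the upstream Stat92E site and 3 Socs36E sites, and 4 of 5 Stat92E sites had the higher signal in replicate 1. By rank within each replicate's own list, 3 of the 12 stood higher in replicate 3, against 52.5% of all IDR peaks in both lists. Of all 57 pooled regions at the members, 46 (80.7%) overlapped a region in both replicate lists, against 70.8% of all pooled regions. Of these 57, 24 (42.1%) overlapped another pooled region, against 32.6% of all pooled regions. With 2 samples of 1 group no test of these differences was possible, and 2 of the 12 share a region of replicate 1.

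Of the searched motifs, the STAT forms and GAGAG were found under the 12 peaks. Each of the others was in at most 10.3% of all IDR windows. In the 300 bp windows, with both strands read, TTCNNNGAA was found in 1 of 12 windows (8.33%) against 8.50% of all IDR windows, and TTCNNNNGAA in 2 of 12 (16.7%) against 8.68%. Either form was found in 3 of 12 (25.0%), against 16.7% of all IDR windows. The count depended on the window: it was 2 of 12 (16.7%) against 11.6% in windows of 200 bp, and 6 of 12 (50%) against 26.4% in windows of 500 bp. From the highest regions of a single replicate it was 4 of 14 without replicate 1 and 5 of 15 without replicate 3. No share over all such regions was computed, so these counts show neither an excess nor its absence. GAGAG, which GAGA factor binds, was in 4 of 12 (33.3%) against 38.9%. No member window held the E-box CACGTG (4.59% of all IDR windows), the Hairy site CACGCG (10.3%), TATCGATA of DREF (7.88%), CAGGTA of Zelda (5.83%), AACCACA of Runt domain proteins (3.92%) or GTGGGAA of Su(H) (3.65%). Hairy and Runt are among the repressors known to recruit Groucho. A match describes letters, and its lack says only that they are not in these windows.

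Other genes of the pathway were covered by the same rule. Of 13 regulators, 9 (69.2%) had an IDR summit in the gene or within 5 kb, and of 18 genes known as targets 9 (50%) did, against 49.4% of all protein-coding genes. The regulators had long windows: 5 fell in the fifth of genes with the longest, where 60.7% had an IDR peak, 7 in the next, where 56.4% did, and 1 in the one after that, where 51.7% did. Of the targets, 7 fell in the fifth with the longest windows and 4 in that with the shortest. Within 1 kb of an own start it was 6 of 13 regulators (46.2%) and 6 of 18 targets (33.3%), against 25.9%. All regulators had a pooled region, as did 16 of 18 targets (88.9%), against 76.9% of protein-coding genes, a share not matched for window length. The targets TotA and TotC were counted through the same region, of signal 21.7, near the list's floor of 21.4 and listed in replicate 1 alone. The segmentation gene eve and Tep1, which encodes an immune thioester protein, had none.

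**Figure D4:**
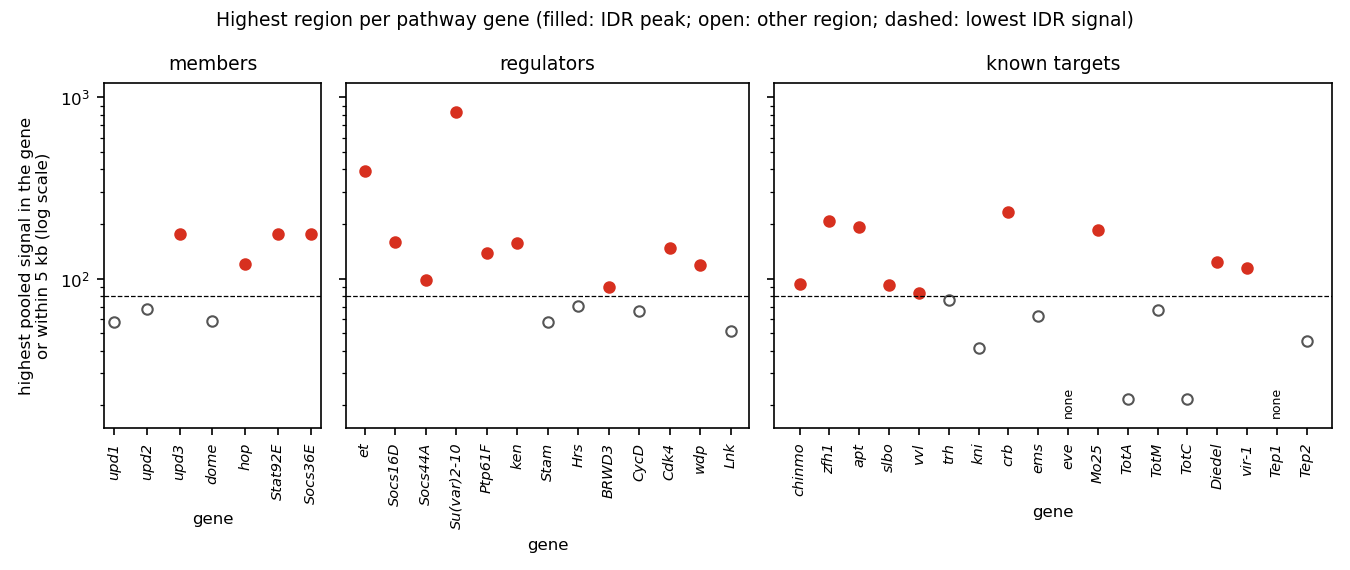
Highest pooled signal (log scale) in each gene or within 5 kb, for the 7 JAK-STAT genes, 13 regulators and 18 known targets; filled points are IDR peaks, open points other pooled regions, and the dashed line is the lowest IDR signal. The filled points of the 7 genes lie between 121 and 176, below the highest values of the other lists, such as 828 at Su(var)2-10.

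Of the 6 highest sites of these lists, 4 lay nearest to the start of a neighbour. The site at Su(var)2-10, whose product is a STAT inhibitor of the PIAS family, had 828 and lay 55 bp from the start of GstE13, with replicate signals of 416 ± 178 (SD, n = 2). At et, a gene beside dome for a receptor-like inhibitor, it had 393 and lay 1112 bp from Zw; it is the site of 393 named beside dome. The site at the cell polarity gene crb had 232 and lay 26 bp from Uck. At Mo25 it had 185 and lay 121 bp from Su(P).

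Own introns held the other sites among these 6. In zfh1, which encodes a zinc finger and homeodomain repressor, the site had 207, or 108 ± 28.9 over replicates (SD, n = 2). It lay 1457 bp upstream of the nearest zfh1 start. In apt, which encodes a transcription factor that limits the pathway in border cells, the site had 193, or 96.3 ± 19.9. It lay 196 bp upstream of the nearest apt start, and so close to a promoter.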

How the data were processed

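Per the deposited manifest (the lists have no header), the authors made a list of 30000 dm6 regions for either replicate against a control alignment, another of 30000 for the replicates pooled, and an IDR list of 4492. The lists of 30000 hold peaks and background, as input for the IDR step. The aligner, peak caller, settings and thresholds were not stated there. The deposited signal (column 7) has no stated scale. The deposited −log10 q values (column 9) share 1 maximum in many regions and were not used to rank. The dm3 lists were not used here.

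Gene models came from Ensembl release 115, and all 7 members had equal coordinates in RefSeq Release 6, the dm6 assembly; transposable elements were left out. All positions count from 1. All IDR peaks equalled the 4492 pooled regions of highest signal. Regions were assigned by summit, replicates matched by an overlap of at least 1 bp, and windows were 300 bp. The counting, matching and motif functions were tested on simulated data (Python 3.11.15, pandas 2.3.3). The members and lists were chosen with earlier results of these data known. The 7 members, the genes nearest to their IDR peaks, their neighbours in rank and the 6 highest genes of the pathway lists are named by rule. No test was made, since there is 1 group. The depth per sample is unknown, and n = 2 limits the precision.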

Additional observations from a re-analysis of the deposited data

How the results depend on the processing

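The number of members with an IDR peak, 4, ranged from 3 to 5 over all alternatives, and the number with a pooled region, 7, from 5 to 7. The 12 IDR summits became 7 in gene bodies alone, 19 within 10 kb and 7 when the nearest protein-coding start had to be the member's. The 57 pooled summits became 31 in gene bodies, 37 within 1 kb, 26 by the nearest start and 35 when only regions above the list's median rank counted. These settings take in less or more sequence, or fewer regions, by construction. Either STAT form was in 3 of 12 windows, in 2 of 12 with 100 bp on each side (11.6% of all IDR windows) and in 6 of 12 with 250 bp (26.4%). From single-replicate lists the counts were 14 and 15 for IDR summits, 5 and 5 for members with one, 62 and 54 for pooled summits, 7 and 7 for members with one, 3 and 3 for members with a peak within 1 kb of an own start, and 4 of 14 and 5 of 15 for windows with a STAT form (without replicate 1 and without replicate 3). No background shares from the single-replicate lists were computed. Chosen after seeing the data were the single-replicate values for own starts and for STAT forms, any overlap of a region in place of its summit, which left 4 members with an IDR peak, and counting overlapping regions once, which gave 11 IDR and 45 pooled regions. With an overlap of at least 50% of the shorter region, 10 of 12 IDR peaks were found in both replicates. The share of all IDR peaks at that overlap was not computed. No paired analysis was possible because there is 1 group.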

Other observations

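When overlapping pooled regions were counted once, Stat92E had 14 in place of 20 and Socs36E 16 in place of 21. At Stat92E the pair at the inner start is the only one in which both regions are IDR peaks.

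Some replicate regions had no counterpart in the pooled list, while 0 of the 57 pooled regions were seen in neither replicate list. At Stat92E, 7 of 23 regions of replicate 3 met no pooled region, against 0 of 15 of replicate 1. The signals of these 7 reached 20.5, near the median of 20.4 in the replicate 3 list. At Socs36E it was 2 regions in either replicate. The shares over all regions of the replicate lists were not computed, so these counts only describe the member windows. At upd3, replicate 1 listed a region of 25.7 that met no pooled region.

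Just beyond the 5 kb limit of Stat92E lay IDR peaks at the starts of DPCoAC (5366 bp beyond, signal 163) and CG15922 (7936 bp beyond, signal 86.6). Beyond that of hop lay a peak near CG1737 (9392 bp beyond, signal 197).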
